A study of Mus musculus with 6 samples.

Results

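The genes described here encode splicing factors and the CLK kinases that phosphorylate them, measured by RNA-Seq in Tregs sorted from B16 melanoma tumors. Members were set by gene name, in a list chosen with earlier results of these data known. They are the SR proteins (*Srsf* followed by a digit), *Clk1* to *Clk4*, *Tra2a*, *Tra2b*, *Srrm1*, *Srrm2*, the *Luc7l* genes, *Rbm5*, *Rbm6*, *Rbm25*, *Rbm39*, and all *Sf3a*, *Sf3b*, *Prpf* and *Snrp* genes. The table held 59 such genes among 12153, of which 58 were protein coding and 1, *Snrpert*, was a processed pseudogene. The annotation lists 60 protein-coding genes with such names, and *Snrpn* and *Srsf12* had no row.

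The control group was 3 libraries from mice that carry floxed *Nr3c1*, the gene for the glucocorticoid receptor (GR). The *Nr3c1*-Foxp3-Cre group was 3 libraries from mice that carry floxed *Nr3c1* together with a Foxp3-YFP/Cre allele, in which the *Foxp3* promoter drives Cre so that GR is deleted in Tregs. Both groups bore B16.F10 tumors, a mouse melanoma line, harvested on day 15. The labels give sorting by CD45, CD4 and CD25 and name a Cre allele only for the *Nr3c1*-Foxp3-Cre mice, and the study's methods give sorting by Foxp3-YFP, so a difference in sort or in Cre allele cannot be told apart from the loss of GR. Nothing in the sources used here says whether a library came from 1 animal or several, so the spread between libraries may be partly technical.

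Pre-mRNA splicing is carried out by the spliceosome, built from small nuclear ribonucleoproteins (snRNPs) that carry Sm proteins and recognize the splice sites and the branch point. SR proteins, which have domains rich in arginine and serine, bind exons and recruit snRNPs, and CLK kinases phosphorylate those domains and so govern where SR proteins act. Many SR protein, CLK, Tra2 and LUC7-like genes are known to limit their own output by detained introns, which hold the RNA in the nucleus, or by "poison" exons, which carry a premature stop codon and send the mRNA to nonsense-mediated decay (NMD). In T cells, splicing changes after activation are well known, and *Clk* and *Srsf* genes are among the best studied carriers of these regulated introns.

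The annotation of the genes differs between these regulated genes, called detained-intron type here (18 *Srsf*, *Clk*, *Luc7l* and *Tra2a* genes), and the core snRNP genes (the *Snrp* genes). In GENCODE M21, a transcript of the NMD class was annotated for 17 of 18 detained-intron type genes (94.4%) and for 4 of 11 protein-coding core snRNP genes (36.4%), against 29.7% of the 11440 protein-coding genes in the table. A retained-intron transcript was annotated for 16 of the 18 (88.9%) and for 9 of the 11 (81.8%), against 60.9% of all. These traits are not particular to the detained-intron type. Among members outside both classes, 4 of 4 *Rbm* genes, 2 of 2 *Srrm* genes and *Tra2b* had annotated transcripts of both kinds. An NMD transcript was annotated for 7 of 13 *Prpf* genes and for 1 of 9 *Sf3a* and *Sf3b* genes. The detained-intron type genes had a median of 9.5 annotated transcripts, the core snRNP genes 5 and all protein-coding genes 5. These are counts of annotated transcripts, which also grow with how closely a gene has been studied, and they measure nothing in the Tregs.

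**Figure D1:**
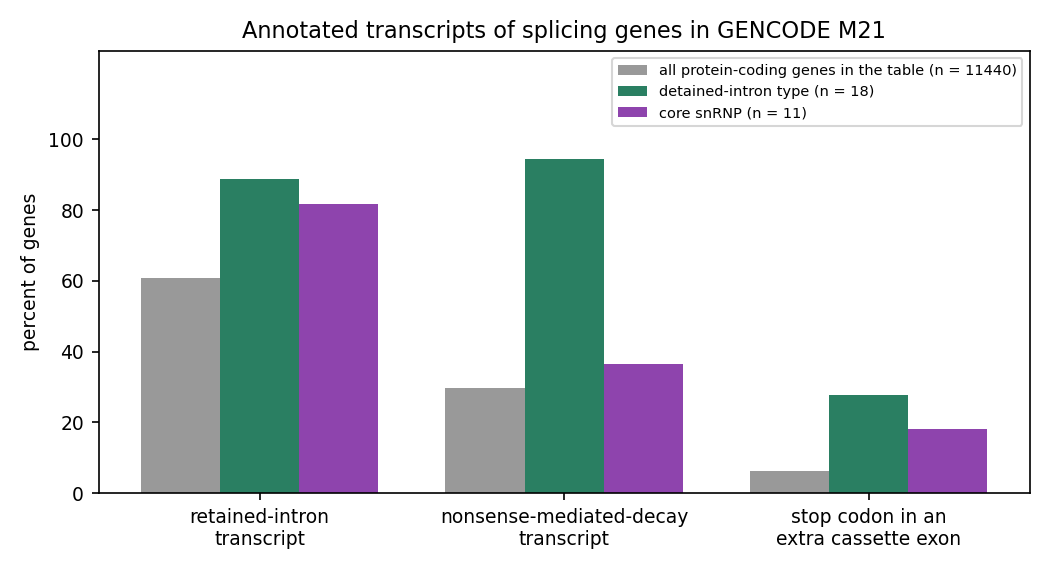
Percent of genes (vertical axis, from 0) with an annotated retained-intron transcript, an annotated NMD transcript, or an NMD transcript whose stop codon lies in an extra cassette exon. Bars show the 11440 protein-coding genes of the table, the 18 detained-intron type genes and 11 core snRNP genes; the largest distance between the last 2 is in NMD transcripts, 94.4% against 36.4%.

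For 14 of 58 protein-coding members (24.1%), against 6.15% of all protein-coding genes in the table, an NMD transcript held its stop codon in an internal exon absent from the principal coding transcripts. Among detained-intron type genes it was 5 of 18 and among core snRNP genes 2 of 11. The exons of these genes and of *Tra2b* are printed to show what the gene totals reported below cannot separate: a read from such an exon, or from the rest of the same NMD transcript, adds to the same gene value as a read from the productive mRNA. Each sequence runs 5′ to 3′ on the strand of the gene from the first base of the exon to the in-frame stop codon, in capitals, with mm10 positions from GENCODE M21.
*Srsf3*, chr17:29039454-29039487, plus strand: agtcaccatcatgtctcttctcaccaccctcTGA
*Srsf6*, chr2:162932815-162932966, plus strand: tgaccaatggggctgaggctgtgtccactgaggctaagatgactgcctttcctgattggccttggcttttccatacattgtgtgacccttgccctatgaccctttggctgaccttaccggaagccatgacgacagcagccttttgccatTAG
*Srsf7*, chr17:80205054-80205081, minus strand: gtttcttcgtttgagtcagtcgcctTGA
*Srsf11*, chr3:158024209-158024231, minus strand: ttcttttccctggttcagccTGA
*Tra2a*, chr6:49252965-49253108, minus strand: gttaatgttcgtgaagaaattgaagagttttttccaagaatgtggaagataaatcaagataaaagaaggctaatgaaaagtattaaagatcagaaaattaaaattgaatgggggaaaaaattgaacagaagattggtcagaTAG
*Tra2b*, chr16:22259181-22259261, minus strand: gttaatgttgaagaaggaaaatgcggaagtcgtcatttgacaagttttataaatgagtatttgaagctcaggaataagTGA
*Snrpa*, chr7:27194161-27194204, minus strand: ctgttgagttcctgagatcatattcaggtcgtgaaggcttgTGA
*Snrpb*, chr2:130176695-130176752, minus strand: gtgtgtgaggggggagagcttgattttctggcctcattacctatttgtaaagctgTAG

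The printed stretch is only the start of each exon in most of these genes. The whole exon was 456 nt in *Srsf3*, 460 nt in *Srsf7*, 268 nt in *Srsf6*, 306 nt in *Tra2a*, 276 nt in *Tra2b*, 109 nt in *Srsf11*, 123 nt in *Snrpa* and 124 nt in *Snrpb*. *Rbm39* had 5 annotated exons of this kind, the most of any member.

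The values deposited are log2 CPM, read counts scaled to a common library total, after quantile normalization, with 1 value per gene and library and an unknown depth. Differences between the groups were tested with limma over all 12153 genes, with Benjamini-Hochberg adjustment over the whole table. *Nr3c1* was at 7.15, 7.59 and 6.88 log2 CPM in the control libraries and 6.14, 5.45 and 5.90 in the *Nr3c1*-Foxp3-Cre libraries, without overlap and with a limma adjusted p of 0.120. The GR target *Tsc22d3* did not overlap between groups either (log2 fold change -1.56, limma adjusted p = 0.0342), and its adjusted p ran from 0.00615 to 0.154 without single libraries, at 0.05 or above in 4 of 6. Treg markers were present, with a mean over 7 markers of 7.92 to 8.52 log2 CPM in control and 7.98 to 8.42 in *Nr3c1*-Foxp3-Cre libraries. Markers of other cells were present as well. The mean of 7 melanoma markers ran from 7.74 to 9.16 log2 CPM in control and 7.77 to 9.15 in *Nr3c1*-Foxp3-Cre libraries, and the mean of 6 myeloid markers from 4.50 to 4.96 and 4.09 to 4.96. The mean of 3 fibroblast collagen genes was 5.61 to 6.93 in control and 4.38 to 5.22 in *Nr3c1*-Foxp3-Cre libraries, with no overlap. *Cd8b1* was measured, and *Cd8a*, the 3 B cell markers and both NK cell markers had no row. In bulk samples, a lower share of cells of a type and less RNA per cell cannot be told apart.

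Most members were well expressed in the control libraries of sorted tumor Tregs. Melanoma, myeloid and fibroblast markers were present in the same libraries, so these levels are of a mixture of cells. The share that comes from Tregs is not known. On a scale of CPM per kilobase of transcript, *Snrpb*, which encodes the Sm proteins B and B', was highest at 409 (401 to 419 over the 3 control libraries). *Srsf5* at 231 (215 to 266) and *Srsf7* at 227 (194 to 277) followed, and next came *Srsf3* at 183 (165 to 195) and *Snrpe* at 181 (168 to 198). *Srsf7* overlapped all 3 of these, and *Srsf5* lay above *Srsf3* and *Snrpe*. Among the CLK kinases the level per kilobase was 69.4 for *Clk1* (60.9 to 82.7), 59.5 for *Clk3* (55.5 to 64.9), 40.3 for *Clk4* (35.4 to 43.0) and 27.1 for *Clk2* (24.6 to 30.8), with overlap between *Clk1* and *Clk3* only. *Tra2b* stood at 132 (105 to 157), far above its paralog *Tra2a* at 12.8 (10.2 to 15.7). The lowest members were *Prpf4b* at 6.27, *Snrpert* at 5.65 and *Prpf40b* at 1.82.

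No member passed an adjusted p under 0.05 in the comparison of *Nr3c1*-Foxp3-Cre with control Tregs, and the lowest limma adjusted p of a member was 0.99998. Over all 12153 genes 7 passed, or 0.0576%, so a count of 0 among 59 is at the background. At an unadjusted p under 0.05, 2 members were higher, *Rbm39* and *Luc7l*, which is 3.39% against 1.61% of all genes, and 0 were lower, against 1.65%. Groups did not overlap for 5 members that were higher in *Nr3c1*-Foxp3-Cre Tregs (*Clk4*, *Luc7l*, *Rbm25*, *Rbm39* and *Sf3b1*), 8.47% against 3.69% of all genes, and for 2 that were lower (*Sf3b6* and *Snrpa*), 3.39% against 3.73%. The log2 fold change lay above 0 for 34 members (57.6%) and below 0 for 25 (42.4%), against 49.5% and 50.5% of all genes. The median log2 fold change was 0.0029 over the members and -0.0014 over all genes, and the median size of the change was 0.087 against 0.108. The members ran from -0.30 in *Luc7l2* to 0.35 in *Prpf40b*, with a median standard error of 0.12.

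**Figure D2:**
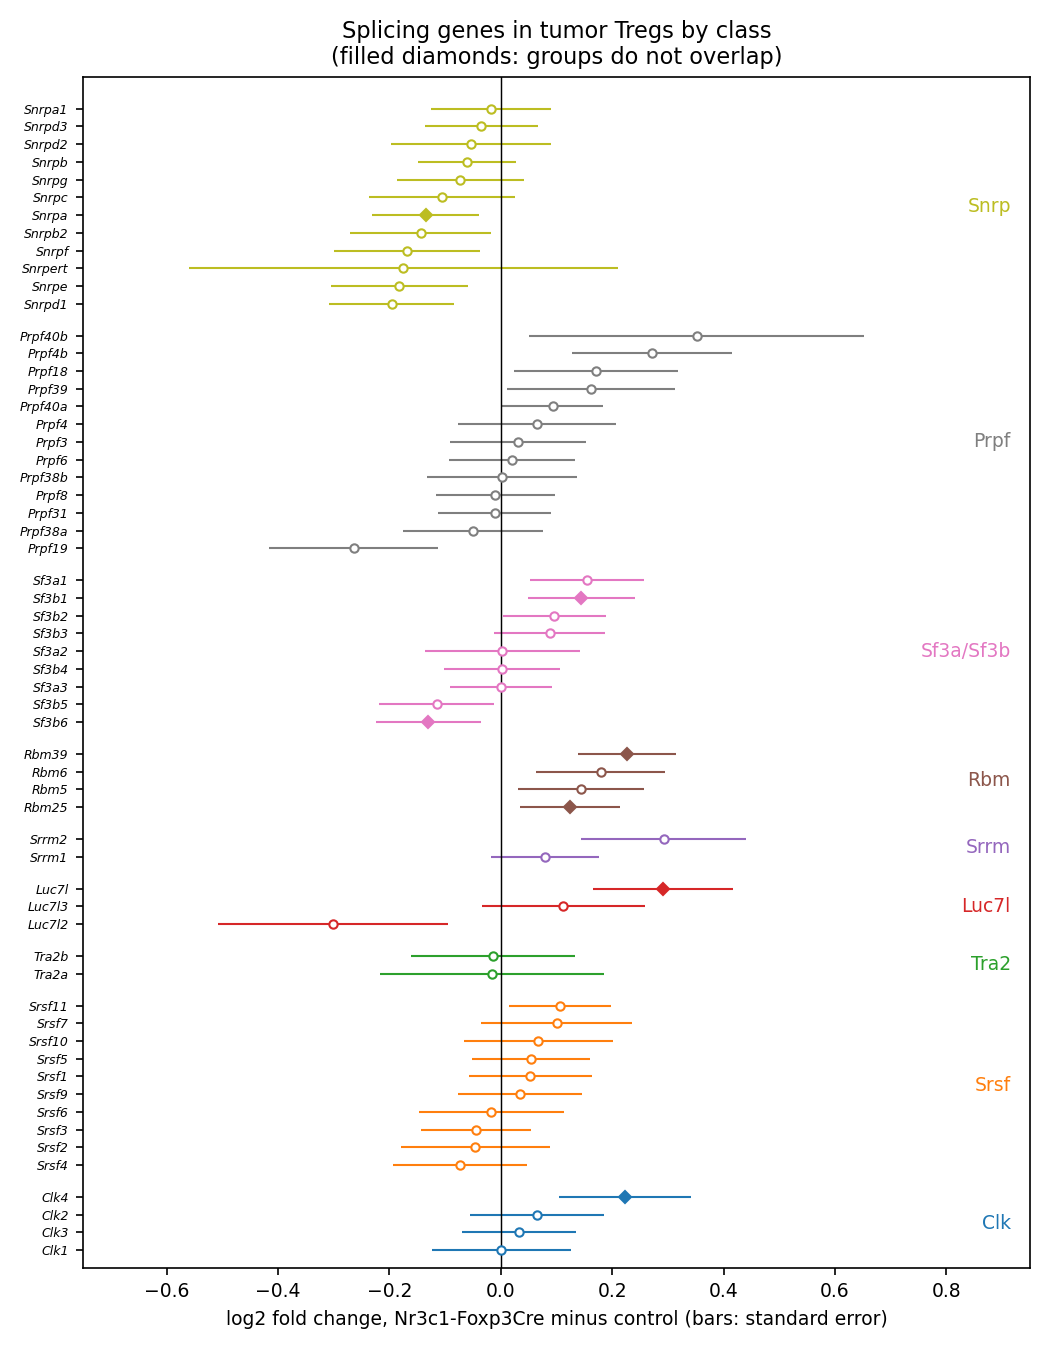
Log2 fold change, *Nr3c1*-Foxp3-Cre minus control (horizontal axis), of the 59 members grouped by class, with bars for the standard error from limma. Filled diamonds mark the 7 members whose groups did not overlap; the 12 *Snrp* genes all lie below 0 and the 4 *Rbm* genes all above it, and no member had an adjusted p under 0.05.

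None of the 4 CLK kinases passed the test, and 1 of them, *Clk4*, separated the groups. *Clk4* (ENSMUSG00000020385.16, chromosome 11 of mm10 from 51261730 to 51281766), a kinase of SR proteins, was at 6.13, 6.13 and 5.85 log2 CPM in control and 6.27, 6.33 and 6.17 in *Nr3c1*-Foxp3-Cre libraries. All 3 *Nr3c1*-Foxp3-Cre libraries were above all 3 control libraries, by a narrow margin. The log2 fold change was 0.22 (standard error 0.12, 95% interval -0.045 to 0.49), or 1.17-fold, and the unadjusted limma p was 0.0923. *Clk1* (chromosome 1, 58410189 to 58424066), the best studied kinase of the family and a carrier of detained introns, was at 6.77, 7.21 and 6.90 log2 CPM in control and 6.97, 7.02 and 6.90 in *Nr3c1*-Foxp3-Cre libraries. The *Nr3c1*-Foxp3-Cre libraries all fell inside the control range, and the log2 fold change was 0.00076 with a 95% interval of -0.28 to 0.28. *Clk2* was at 5.80, 6.03 and 5.71 log2 CPM in control and 5.91, 5.95 and 5.87 in *Nr3c1*-Foxp3-Cre libraries (log2 fold change 0.065, standard error 0.12). For *Clk3* the values were 7.12, 7.34 and 7.19 in control and 7.15, 7.24 and 7.35 in *Nr3c1*-Foxp3-Cre libraries (log2 fold change 0.032, standard error 0.10). Both overlapped, and the sign for *Clk1*, *Clk2* and *Clk3* turned when single libraries were left out. *Clk3* shares exon sequence with *Edc3* on the other strand, and this kit does not mark strand, so reads from the overlap cannot be assigned.

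No SR protein gene separated the groups. Of 10 measured *Srsf* genes, 6 lay above 0 and 4 below, with a median log2 fold change of 0.043 and no gene at an unadjusted p under 0.05 or without overlap. The highest was *Srsf11*, a regulator of exon choice, at 7.68, 7.75 and 7.72 log2 CPM in control and 7.87, 7.72 and 7.89 in *Nr3c1*-Foxp3-Cre libraries (log2 fold change 0.11, standard error 0.091). Its second *Nr3c1*-Foxp3-Cre library lay among the controls. The lowest was *Srsf4*, at 6.56, 6.83 and 6.82 log2 CPM in control and 6.74, 6.50 and 6.75 in *Nr3c1*-Foxp3-Cre libraries (log2 fold change -0.073, standard error 0.12), with mixed groups. For *Srsf3*, an SR protein that also promotes mRNA export, the change was -0.044 on the log2 scale (95% interval -0.27 to 0.18), for *Srsf7* 0.10 (-0.20 to 0.41) and for *Srsf6* -0.017 (-0.31 to 0.28), and reads from the poison exons printed for them, if any, would count in these gene totals. The general splicing factor *Srsf1* had a log2 fold change of 0.053 (-0.20 to 0.30). *Srsf2* had one of -0.045 (-0.35 to 0.26), and it shares exon sequence with *Mettl23* and *Mfsd11* on the other strand.

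The Tra2 proteins are SR-like activators of exon inclusion, and neither gene passed the test. *Tra2b* (chromosome 16, 22244549 to 22266005) was at 8.55, 7.97 and 8.38 log2 CPM in control and 8.38, 8.16 and 8.32 in *Nr3c1*-Foxp3-Cre libraries, a log2 fold change of -0.013 (95% interval -0.35 to 0.32). *Tra2a* was at 4.82, 4.54 and 4.19 in control and 4.72, 4.32 and 4.45 in *Nr3c1*-Foxp3-Cre libraries, a log2 fold change of -0.016 (-0.47 to 0.44). The control libraries spanned the *Nr3c1*-Foxp3-Cre libraries in both genes, and both signs turned without single libraries.

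The LUC7-like proteins are U1 snRNP-associated factors that bear on the choice of the 5′ splice site, and the fold changes of the 3 genes differed in sign. *Luc7l* (ENSMUSG00000024188.16, chromosome 17, 26252896 to 26285504) was at 6.08, 5.88 and 5.69 log2 CPM in control, 5.89 ± 0.19 (SD, n = 3), and 6.18, 6.11 and 6.24 in *Nr3c1*-Foxp3-Cre libraries, 6.18 ± 0.063 (SD, n = 3). The groups did not overlap, though the first control library came close to the lowest *Nr3c1*-Foxp3-Cre library. The log2 fold change was 0.29 (95% interval 0.0081 to 0.57), or 1.22-fold, at an unadjusted limma p of 0.0449. That p was 0.05 or above in 5 of the 6 fits that left out a single library, and without the third control library the log2 fold change was 0.19. *Luc7l2* was at 4.73, 4.64 and 4.53 log2 CPM in control and 4.70, 3.94 and 4.36 in *Nr3c1*-Foxp3-Cre libraries, where the second library was lowest of all (log2 fold change -0.30, standard error 0.21), and without that library it was -0.10. *Luc7l3* was at 4.97, 4.83 and 4.99 in control and 4.96, 4.92 and 5.25 in *Nr3c1*-Foxp3-Cre libraries (log2 fold change 0.11, standard error 0.15), and without the third *Nr3c1*-Foxp3-Cre library it was 0.0083.

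The RNA-binding proteins of the *Rbm* class were the only class of 3 or more genes besides *Clk* and *Snrp* with every member on the same side of 0, with a median log2 fold change of 0.16. *Rbm39* (ENSMUSG00000027620.16, chromosome 2, 156147239 to 156180238) encodes a U2AF-related splicing factor. It was at 8.41, 8.37 and 8.31 log2 CPM in control, 8.36 ± 0.051 (SD, n = 3), and 8.53, 8.64 and 8.59 in *Nr3c1*-Foxp3-Cre libraries, 8.59 ± 0.056 (SD, n = 3). The difference of the means was larger than either SD. The log2 fold change was 0.23 (95% interval 0.029 to 0.42), or 1.17-fold, with an unadjusted limma p of 0.0290 and an adjusted p of 0.99998. The unadjusted p was 0.05 or above in 4 of the 6 fits without a single library. *Rbm25*, which encodes a factor associated with the U1 snRNP, was at 7.13, 7.01 and 7.03 log2 CPM in control and 7.17, 7.20 and 7.18 in *Nr3c1*-Foxp3-Cre libraries, again without overlap (log2 fold change 0.12, standard error 0.090). *Rbm5* and *Rbm6* are neighboring paralogs on chromosome 9, at 107740371 to 107770996 and 107773559 to 107873237, whose proteins act on alternative exons. *Rbm5* was at 7.23, 7.30 and 6.94 log2 CPM in control and 7.35, 7.25 and 7.31 in *Nr3c1*-Foxp3-Cre libraries (log2 fold change 0.14, standard error 0.11), a difference that fell to 0.037 without the third control library. *Rbm6* was at 6.03, 6.23 and 6.31 in control and 6.36, 6.47 and 6.28 in *Nr3c1*-Foxp3-Cre libraries (log2 fold change 0.18, standard error 0.12). Each overlapped through 1 *Nr3c1*-Foxp3-Cre library. The mean of the 4 genes, each centered on its mean over all libraries, was -0.079, -0.048 and -0.13 in control and 0.075, 0.11 and 0.063 in *Nr3c1*-Foxp3-Cre libraries, without overlap, and all 4 stayed above 0 whichever library was left out. These 4 genes were read in the same libraries and are not independent.

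*Srrm1* and *Srrm2* encode large SR-related proteins of the active spliceosome, and *Srrm2* is a main scaffold of nuclear speckles. *Srrm2* (chromosome 17, 23790532 to 23824741) was at 7.48, 7.73 and 7.51 log2 CPM in control and 8.20, 7.70 and 7.69 in *Nr3c1*-Foxp3-Cre libraries. The first *Nr3c1*-Foxp3-Cre library stood well above all others and the remaining 2 lay within the control range. Its log2 fold change, 0.29 with a standard error of 0.15, became 0.12 without that library. Part of its exon sequence is shared with *Elob* on the other strand. *Srrm1* was at 6.86, 7.02 and 7.02 in control and 7.10, 6.97 and 7.07 in *Nr3c1*-Foxp3-Cre libraries (log2 fold change 0.079, standard error 0.097).

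**Figure D3:**
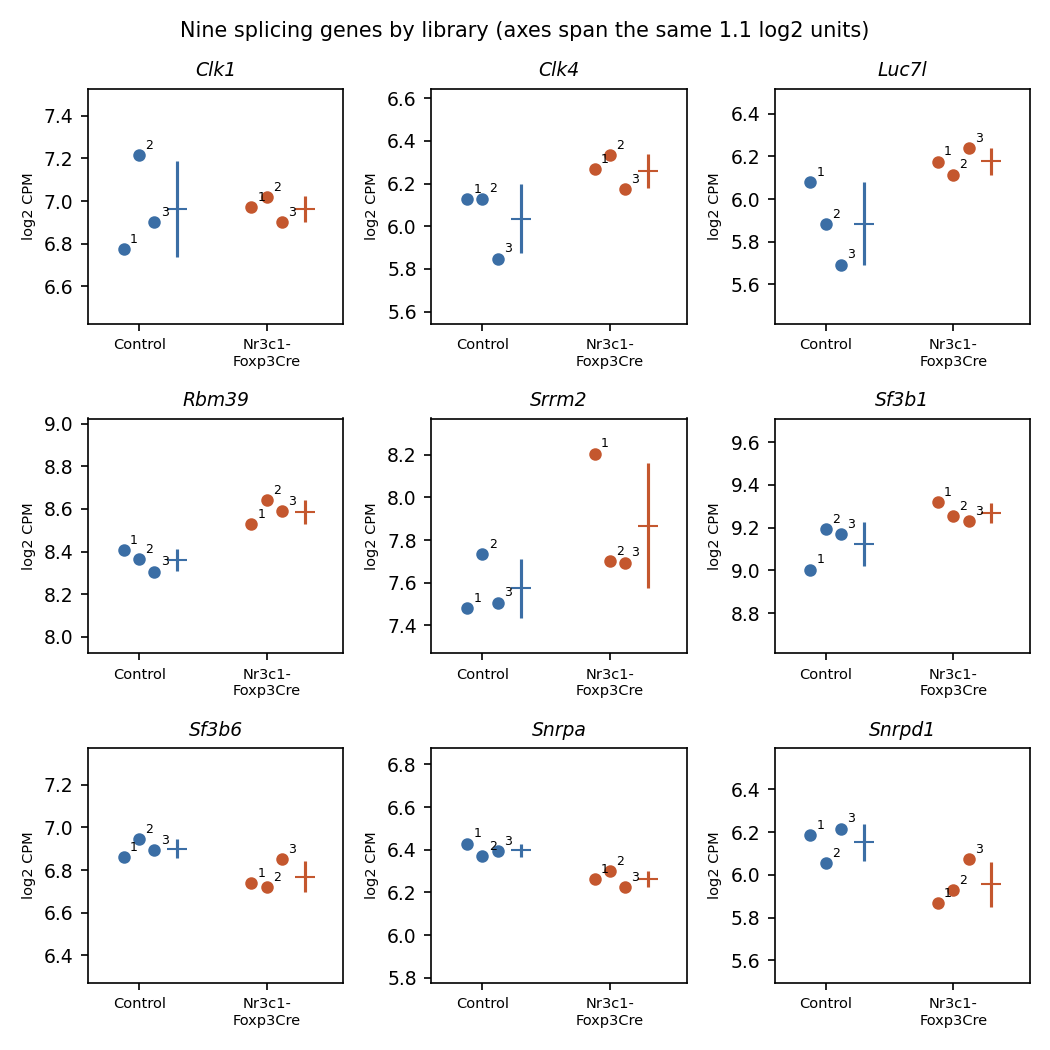
Log2 CPM (vertical axes, each spanning the same 1.1 log2 units) of 9 members in each library, numbered by replicate, with the mean and SD of each group beside the points. *Clk4*, *Luc7l*, *Rbm39*, *Sf3b1*, *Sf3b6* and *Snrpa* do not overlap between groups, *Clk1* does fully, and in *Srrm2* a single *Nr3c1*-Foxp3-Cre library at 8.20 stands apart.

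The SF3a and SF3b proteins form the part of the U2 snRNP that holds the branch point. Of 9 genes, 7 lay above 0 and 2 below, with a median log2 fold change of 0.0029. *Sf3b1*, the largest subunit of SF3b, was at 9.003, 9.19 and 9.17 log2 CPM in control and 9.32, 9.25 and 9.23 in *Nr3c1*-Foxp3-Cre libraries (log2 fold change 0.14, standard error 0.096). *Sf3b6*, whose protein contacts the branch point adenosine, was at 6.86, 6.95 and 6.89 in control and 6.74, 6.72 and 6.85 in *Nr3c1*-Foxp3-Cre libraries (log2 fold change -0.13, standard error 0.094). Groups did not overlap in either gene, and the directions were opposite within the same complex. The highest of the class was *Sf3a1*, at 7.09, 6.97 and 6.97 in control and 7.31, 7.12 and 7.07 in *Nr3c1*-Foxp3-Cre libraries (log2 fold change 0.15, standard error 0.10), and this overlapped.

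The *Prpf* genes encode pre-mRNA processing factors, many of them parts of the U4/U6.U5 tri-snRNP or of the complexes that activate the spliceosome. Of 13, 9 lay above 0 and 4 below, with a median of 0.031 and overlap in each. The mean of the 13 centered genes was -0.0070, -0.068 and -0.022 in control and 0.060, 0.032 and 0.0036 in *Nr3c1*-Foxp3-Cre libraries. This class mean, like that of the *Rbm* genes, did not overlap between groups, by a small margin. The means of the *Clk*, *Srsf*, *Tra2*, *Srrm*, *Luc7l*, *Sf3a* and *Sf3b*, and *Snrp* classes did overlap. Genes of a class share the same libraries, so their agreement is not replication. *Prpf40b*, which encodes a U1 snRNP-associated protein, was highest of all members in log2 fold change (0.35, standard error 0.30) and the lowest level per kilobase. It was at 2.67, 2.09 and 2.76 log2 CPM in control and 2.62, 3.28 and 2.68 in *Nr3c1*-Foxp3-Cre libraries, and without the second control library the change was 0.14. *Prpf19*, an E3 ubiquitin ligase at the center of a complex that activates the spliceosome, was the lowest, at 6.81, 6.68 and 6.93 in control and 6.88, 6.32 and 6.42 in *Nr3c1*-Foxp3-Cre libraries (log2 fold change -0.26, standard error 0.15). Its first *Nr3c1*-Foxp3-Cre library lay among the controls, and without it the change was -0.43 at an unadjusted p under 0.05. *Prpf8*, the protein at the catalytic center, had a log2 fold change of -0.0097 (95% interval -0.25 to 0.23).

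All 12 *Snrp* genes had a log2 fold change below 0, with a median of -0.12, and none had an unadjusted p under 0.05. The sizes were small, from -0.018 in *Snrpa1* to -0.20 in *Snrpd1*. *Snrpd1*, which encodes the Sm protein D1, was at 6.19, 6.05 and 6.22 log2 CPM in control and 5.87, 5.93 and 6.07 in *Nr3c1*-Foxp3-Cre libraries (standard error 0.11, 95% interval -0.45 to 0.055), and its groups met at the second control and the third *Nr3c1*-Foxp3-Cre library. *Snrpa* (ENSMUSG00000061479.15, chromosome 7, 27187005 to 27196271), the A protein of the U1 snRNP, was the only class member without overlap. It was at 6.43, 6.37 and 6.39 log2 CPM in control, 6.40 ± 0.030 (SD, n = 3), and 6.26, 6.30 and 6.22 in *Nr3c1*-Foxp3-Cre libraries, 6.26 ± 0.037 (SD, n = 3), for a log2 fold change of -0.13 (95% interval -0.35 to 0.082). It shares exon sequence with *BC024978* on the other strand. *Snrpa1*, the A' protein of the U2 snRNP, was at 7.27, 7.09 and 7.22 in control and 7.04, 7.16 and 7.32 in *Nr3c1*-Foxp3-Cre libraries, fully mixed. The pseudogene *Snrpert*, at 0.51 to 0.78 log2 CPM in control and 0.31 to 0.75 in *Nr3c1*-Foxp3-Cre libraries, is a copy of *Snrpe* and may share its reads. Exon sequence is also shared with a gene on the other strand in *Snrpd3* and *Snrpf*, and outside this class in *Prpf39*, *Sf3a2* and *Sf3b3*. Without *Snrpert* 11 of 11 were below 0, with a median of -0.11.

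The libraries did not all follow these signs. The mean of the *Snrp* genes, each centered on its own mean over the 6 libraries, was 0.11, -0.042 and 0.097 in control and -0.15, -0.077 and 0.058 in *Nr3c1*-Foxp3-Cre libraries. The third *Nr3c1*-Foxp3-Cre library was thus above the second control library, and the groups overlapped. Without the first *Nr3c1*-Foxp3-Cre library 10 of the 12 genes were below 0, with a median of -0.072, and without the first control library 10 of 12, with a median of -0.065.

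The detained-intron type genes were compared with the core snRNP genes as the naming rule sets them. Of the 18 detained-intron type genes 12 lay above 0 and 6 below, with a median log2 fold change of 0.043, so that the medians of the classes were 0.16 apart. The median over all genes was -0.0014. Within libraries, the mean of the centered detained-intron type genes minus that of the core snRNP genes was -0.077, -0.020 and -0.12 in control, -0.074 ± 0.052 (SD, n = 3), and 0.21, 0.039 and -0.023 in *Nr3c1*-Foxp3-Cre libraries, 0.074 ± 0.12 (SD, n = 3). The third *Nr3c1*-Foxp3-Cre library lay just below the second control library. The detained-intron type genes by themselves gave 0.036, -0.062 and -0.027 in control and 0.057, -0.038 and 0.035 in *Nr3c1*-Foxp3-Cre libraries, which overlapped.

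**Figure D4:**
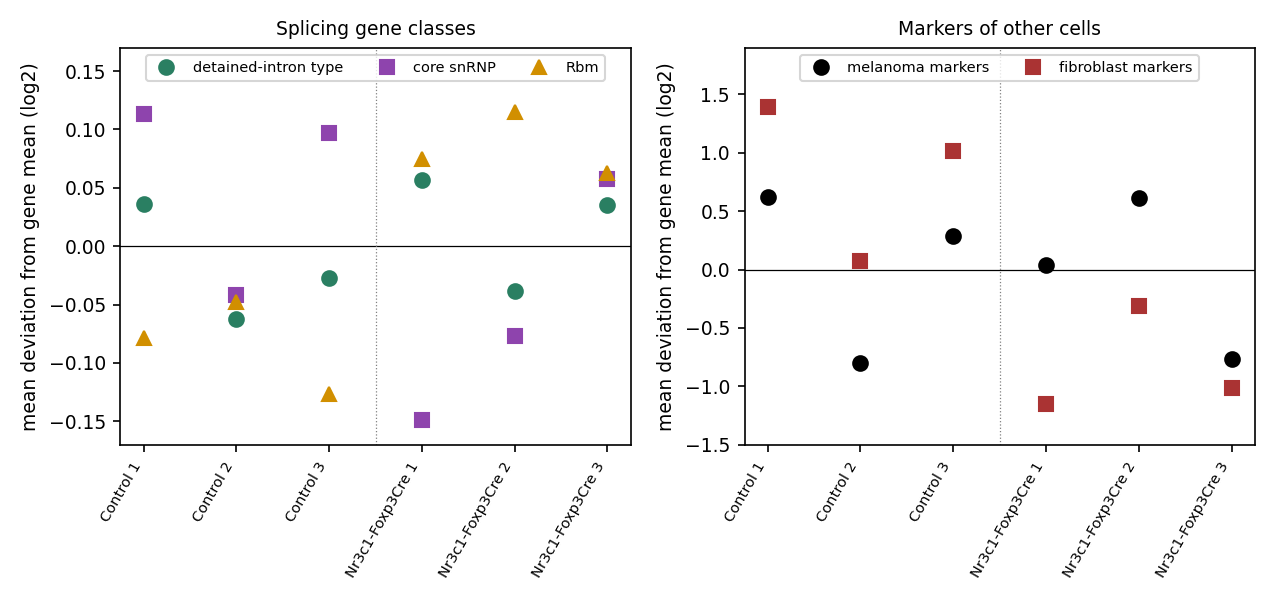
Mean deviation of each class from its genes' means over 6 libraries (vertical axes, log2 units) for each library, with controls to the left of the dotted line. In the left panel the *Rbm* mean separates the groups, from -0.13 to -0.048 against 0.063 to 0.11, and the detained-intron type and core snRNP means overlap; the right panel shows melanoma markers, which overlap, and fibroblast markers, which do not.

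The core snRNP genes have short transcripts, with a median of 1108 nt against 2592.5 nt over all genes, 2074.5 nt over the detained-intron type genes and 3496 nt over the *Rbm* genes, and fold change moved with transcript length across the whole table. The median log2 fold change was -0.044 over 1272 genes with transcripts under 1000 nt, of which 34.0% were above 0, and 0.050 over 1551 genes over 5000 nt, of which 60.9% were above 0. Class and length coincide among the members. All 5 members under 1000 nt are *Snrp* genes, and 0 of them were above 0. Between 1000 and 2000 nt 9 of 19 members were above 0, against 39.7% of all genes of that length. Between 2000 and 3000 nt it was 7 of 13, against 49.5%. Between 3000 and 5000 nt it was 14 of 17, against 59.2%, and over 5000 nt 4 of 5, against 60.9%. Spearman's rho between log2 fold change and length was 0.57 over the 59 members, 0.36 over the 47 that are not *Snrp* genes and 0.19 over 12130 genes, where the genes share the same 6 libraries and are not independent. By library, rho between the deviation from the gene mean and length was 0.41 in the first *Nr3c1*-Foxp3-Cre library and between -0.17 and 0.066 in the other 5, so that 1 library stood apart. Without that library rho over all genes was -0.014.

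With each library's trend on length and GC content removed, the core snRNP median was -0.066, with 11 of 12 genes still below 0, and the distance to the detained-intron type genes was 0.12. The *Rbm* median was 0.15, with 4 of 4 genes above 0, and *Rbm39* and *Luc7l* kept an unadjusted p under 0.05. The 3 fibroblast markers each had an unadjusted limma p under 0.05, all lower in *Nr3c1*-Foxp3-Cre libraries, and their part in any of these differences was not tested.

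**Figure D5:**
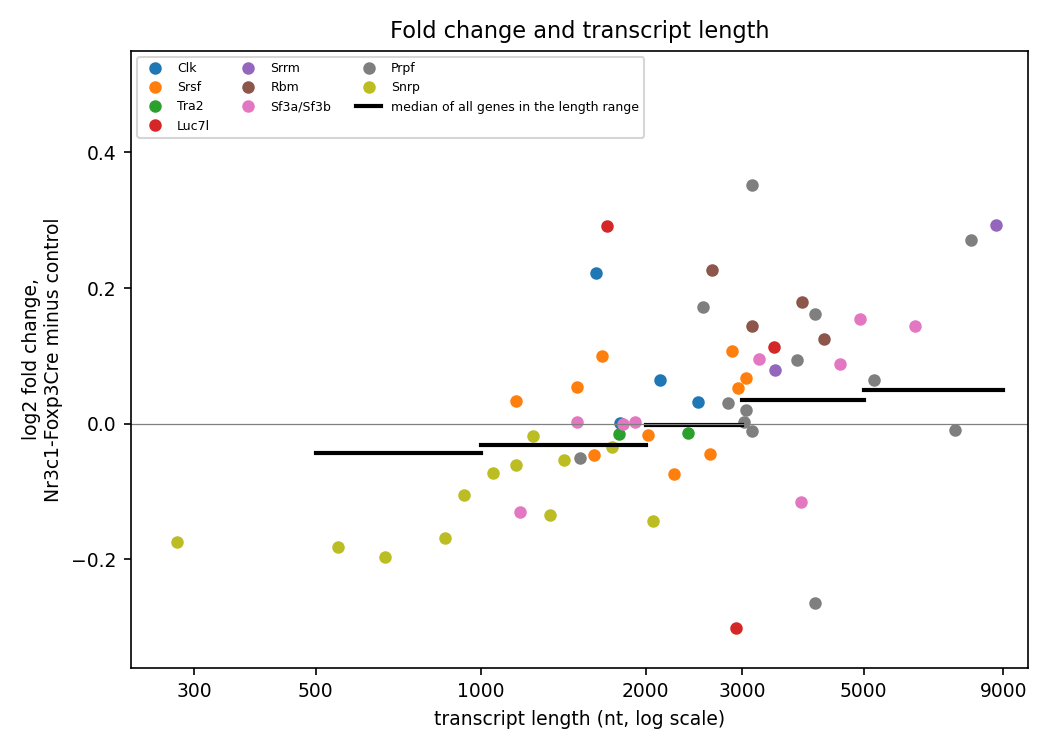
Log2 fold change, *Nr3c1*-Foxp3-Cre minus control (vertical axis), against transcript length in nt (horizontal axis, log scale) for the 59 members colored by class, with black lines for the median of all genes in each length range. The line climbs from -0.044 under 1000 nt to 0.050 over 5000 nt, and the *Snrp* genes sit at its short end.

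Other parts of the splicing machinery were read from lists of genes that are not members. Of 52 further spliceosome and splicing kinase genes, all measured, 0 had an unadjusted limma p under 0.05. Over all genes 1.61% were higher and 1.65% lower at that threshold. Of these 52, 24 lay above 0 and 28 below, and the median log2 fold change was -0.017. Groups did not overlap for 3, *Eftud2*, *Ddx23* and *Aqr*, which were higher in *Nr3c1*-Foxp3-Cre Tregs (5.77%, against 3.69% of all genes), and for 0 that were lower, against 3.73%. The range was from -0.37 in *Snrnp35*, a protein of the minor spliceosome, to 0.67 in *Ddx23*, an RNA helicase of the tri-snRNP. *Ddx23* was at only 0.52, 0.73 and 0.74 log2 CPM in control and 1.43, 1.16 and 1.42 in *Nr3c1*-Foxp3-Cre libraries, near the authors' limit for expression. Of 24 hnRNP and related genes, which often oppose SR proteins, 9 lay above 0 and 15 below, with a median of -0.040. Groups did not overlap for 3, *Hnrnpa0*, *Hnrnpd* and *Pcbp2*, all lower in *Nr3c1*-Foxp3-Cre Tregs (12.5%, against 3.73% of all genes), and for 0 that were higher, against 3.69%. *Pcbp2*, a poly(C)-binding protein, was the only one at an unadjusted limma p under 0.05. That is 4.17% of the list lower, against 1.65% of all genes, and 0 higher, against 1.61%. *Pcbp2* was at 6.57, 6.49 and 6.44 log2 CPM in control and 6.24, 6.21 and 6.14 in *Nr3c1*-Foxp3-Cre libraries (log2 fold change -0.30, standard error 0.0997). Its unadjusted limma p was 0.0138 and its adjusted p 0.99998. *Hnrnpd* was at 7.65, 7.66 and 7.69 in control and 7.64, 7.51 and 7.53 in *Nr3c1*-Foxp3-Cre libraries, with its first *Nr3c1*-Foxp3-Cre library next to the controls. The lowest was *Hnrnpa0* (log2 fold change -0.47, standard error 0.24), and the highest was *Hnrnpu* at 0.10.

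Nuclear and dissociation stress RNAs were read beside the members. *Malat1*, a nuclear speckle RNA, was at 7.82, 8.35 and 7.12 log2 CPM in control and 8.25, 8.39 and 7.67 in *Nr3c1*-Foxp3-Cre libraries, and *Neat1*, the RNA of paraspeckles, at 3.25, 4.17 and 3.03 and at 4.16, 3.92 and 3.70. Both overlapped. None of 9 genes of this list had an unadjusted limma p under 0.05, and the heat shock gene *Hspa1a*, commonly induced by tissue dissociation, was at a log2 fold change of -0.22 (standard error 0.32). Whether the share of nuclear RNA bears on the values of genes with detained introns was not tested.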

How the data were processed

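RNA-Seq was performed on 6 libraries of tumor Tregs, 3 per genotype. Adapters were cut with Cutadapt, alignment to mm10 was by STAR, genes of GENCODE M21 were quantified with RSEM, genes under a CPM limit were dropped, and the values were quantile normalized for limma-voom, all by the authors. What they deposited is log2 CPM per gene and library. These values sum isoforms, so a detained intron or a poison exon cannot be read from them. The weights of voom need counts, and depth is unknown, so no counting interval is given.

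All 12153 genes were fitted here with limma 3.58.1 in R 4.3.3 (lmFit and eBayes with trend, genotype alone as a term, 9.30 degrees of freedom, Benjamini-Hochberg adjustment, threshold 0.05), after the script was tested on simulated data. Intervals are 95%. No set test was run, since the members and all lists were chosen with earlier results of these data known. Positions, transcripts and sequences came from GENCODE M21. Transcript length was the median over coding transcripts of the basic set.

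Named genes were every member of classes with 5 or fewer genes, the highest and lowest of larger classes and of the other lists, members with an unadjusted p under 0.05 or without overlap, and *Nr3c1* and *Tsc22d3*. *Srsf1*, *Srsf2*, *Srsf3*, *Srsf6*, *Srsf7*, *Prpf8*, *Pcbp2* and the other genes of the other lists without overlap were added after their values were seen. *Srsf5*, *Snrpb*, *Snrpe*, *Snrpert* and *Prpf4b* were named for their level per kilobase, also after it was seen. Alternatives were no trend, robust eBayes, sample quality weights, a filter at a mean log2 value of 1, values under log2 0 set to 0, median centering, a replicate block, other class definitions and leaving out each library. The melanoma covariate and the length and GC correction were chosen after seeing the data.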

Additional observations from a re-analysis of the deposited data

How the results depend on the processing

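No member had an adjusted p under 0.05 under any alternative run, and the lowest adjusted p of a member was 0.198, with sample quality weights (limma). Over the whole table, 7 genes became 0 without a mean-variance trend, 19 with sample quality weights, 18 with the melanoma marker mean as covariate, 2 with the length and GC trend removed, and 0 to 8 with single libraries left out. The 396 genes at an unadjusted p under 0.05 became 1376 with sample quality weights, 677 with the melanoma covariate, and 290 to 703 without single libraries. The 2 members at that threshold became 0 without a trend, 8 with sample quality weights (6 higher, 2 lower) and 0 to 3 without single libraries: 0 without the third control, *Srrm2* alone without the second library of either group, *Prpf4b* alone without the third *Nr3c1*-Foxp3-Cre library, and *Luc7l2*, *Prpf19* and *Rbm39* without the first. Members without overlap, 7 in all libraries, numbered 10 to 20 once a library was left out, since fewer values must then separate. The share over all genes was not counted in these fits, so the rise says nothing about the members. For the other spliceosome genes 0 became 1 without a trend, 3 with sample quality weights, 1 with a floor at log2 0 and 0 to 2 without single libraries, and for hnRNP genes 1 became 2 without a trend, 3 with sample quality weights and 1 to 3 without single libraries. The distance between detained-intron type and core snRNP medians was 0.16 without a trend, with robust eBayes, with median centering and with the replicate block. These 4 settings cannot change it, so they say nothing about its stability. The same holds for setting values under log2 0 to 0 and for a minimum mean log2 value of 3 in detained-intron type members. Neither altered or removed a gene of these classes, and the distance stayed at 0.16. In the other alternatives the distance kept its direction, between 0.10 with the *Sf3a* and *Sf3b* genes added to the core and 0.19 with sample quality weights. Without single libraries it was between 0.13 and 0.17. *Tsc22d3* had a limma adjusted p of 0.221 without a trend and 0.137 with the replicate block. Signs were followed only for the genes named by rule. They were not followed for *Srsf1*, *Srsf2*, *Srsf3*, *Srsf6*, *Srsf7*, *Prpf8* or the remaining members, whose signs may turn as well. Among the genes followed, signs turned for *Clk1* (-0.0082 with the melanoma covariate, -0.094 to 0.13 without single libraries), *Clk2* (-0.0042 to 0.16), *Clk3* (-0.017 to 0.094), *Snrpa1* (0.012 with the length and GC trend removed, -0.093 to 0.050), *Srsf4* (-0.16 to 0.0096), *Tra2a* (0.26 with sample quality weights, 0.0046 with the length and GC trend removed, -0.18 to 0.14) and *Tra2b* (-0.18 to 0.11), and the cause was not tested. Whether replicate numbers pair the libraries is not known. Deviations of same-numbered libraries correlated at -0.12, -0.33 and -0.025. This cannot exclude a pairing, because other differences between libraries, such as melanoma marker levels, enter the same deviations. With the replicate block, 0 genes had an adjusted p under 0.05 (7 without it), 275 genes an unadjusted p under 0.05 (396 without it) and 0 members (2 without it). Depth is unknown and 3 libraries per group limit the precision.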
